A study of Homo sapiens with 24 samples.

Results

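The response of Klotho-expressing cells to a short exposure to FGF23 was read from 6 of the 24 RNA sequencing libraries of the series, 3 of treated and 3 of control cells. The libraries were chosen by their labels alone. The cells were HEK293, a human embryonic kidney line of epithelial origin, carrying a stable transfection of Klotho and called Kl. The 3 treated libraries came from Kl cells given recombinant human FGF23 at 0.5 nM for 1 h, and the 3 control libraries from Kl cells collected at the same 1 h time without FGF23. The labels state neither the vehicle of the controls, nor the promoter of the Klotho construct, nor whether the line is 1 clone. The same exposure of HEK293 cells without the construct, called WT (3 treated and 3 control libraries), served to set the effect in Kl cells against that in WT cells. The labels do not say that the libraries of a group are separate cultures, so p-values measure the spread between these libraries, which may be technical.

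FGF23 is a hormone made by bone cells that acts on the kidney to lower phosphate reabsorption and vitamin D activation. It binds FGF receptors with high affinity only when the membrane protein Klotho (KL) stands beside them, and the activated receptor works through the adaptor FRS2 and the RAS-RAF-MEK-ERK kinase cascade. In many cell types ERK phosphorylates transcription factors already present, such as ELK1 bound with SRF, and so switches on a first wave of genes that needs no new protein, the immediate-early genes. That wave includes transcription factors that carry the signal onward and the phosphatases, Sprouty proteins and messenger decay factors that shut it off.

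Total counts were 16.6, 29.4 and 26.3 M in the treated libraries and 15.8, 17.9 and 17.3 M in the controls. Mitochondrially encoded genes took 6.51, 6.61 and 8.27% of the counts in treated libraries and 6.06, 6.92 and 7.62% in controls. The treated libraries differed more among themselves, with a median SD of log2 CPM of 0.214 against 0.111 in the controls (CPM, counts scaled to a common total with TMM factors). In principal components of the 6 libraries the first (39.7% of the variance) set treated library 1 apart at 43.6, with the other treated libraries at -0.38 and 5.35 and the controls between -21.0 and -13.5. The deviations of treated library 1 from the mean of the controls rose with the GC content of the gene (Spearman's rho 0.669 across genes, which are not independent replicates). In the other libraries, set against the same mean, rho lay between -0.268 and 0.168. In treated libraries such a deviation also holds any effect of FGF23. On the second component (23.1%) treated library 3 lay lowest, at -32.1. Of 14 markers of kidney epithelium and HEK293 cells 13 passed the filter on low counts. Their summed level was 1416 to 1499.9 CPM in treated libraries and 1385 to 1405 CPM in controls. Of the 13, 0 were called by edgeR, DESeq2 or limma voom. At an unadjusted p under 0.05 edgeR had 1 of them, against 1277 of all 16250 genes tested. Of 10 blood cell markers only CD14 passed, at 1.63 CPM in treated and 0.900 CPM in control cells. PAX8, a kidney lineage factor on the first list, did not pass the filter. Of 9 proximal tubule markers 5 passed, with a summed level of 40.4 to 53.8 CPM in treated libraries and 43.2 to 44.4 CPM in controls.

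After 1 h of FGF23, Kl cells showed a rise of early genes, and few genes fell in the fit to these 6 libraries. Of 16250 genes tested, 87 rose (0.535%) and 3 fell (0.0185%) at an adjusted p under 0.05 in edgeR's quasi-likelihood test with Benjamini-Hochberg adjustment, here termed called. In each of the 90 the 3 treated libraries lay wholly to one side of the 3 controls, a separation that 7.64% of all genes tested showed upward and 6.35% downward. EGR factors and FOS led, followed by the factors MAFF and JUNB, the prostaglandin enzyme gene PTGS2, the signaling inhibitor SPRY4 and the messenger decay factor ZFP36. The median log2 fold change of the 87 was 1.08, their lowest 0.58, and the median over all genes tested -0.01. The change reached a log2 value of at least 2 in 16 of the 87 and at least 1 in 46. Without treated library 1, 163 genes were called, and without control library 1, 2 or 3 the number was 45, 40 or 49, so the number called depends on single libraries. The split by direction was 156 higher and 7 lower without treated library 1, 223 higher and 13 lower with no filter on low counts, 227 higher and 10 lower in a fit to the 12 libraries of 1 h, and 693 higher and 166 lower in a fit to all 24 libraries. A core of 32 genes was called in the same direction under every alternative setting tried.

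**Figure D1:**
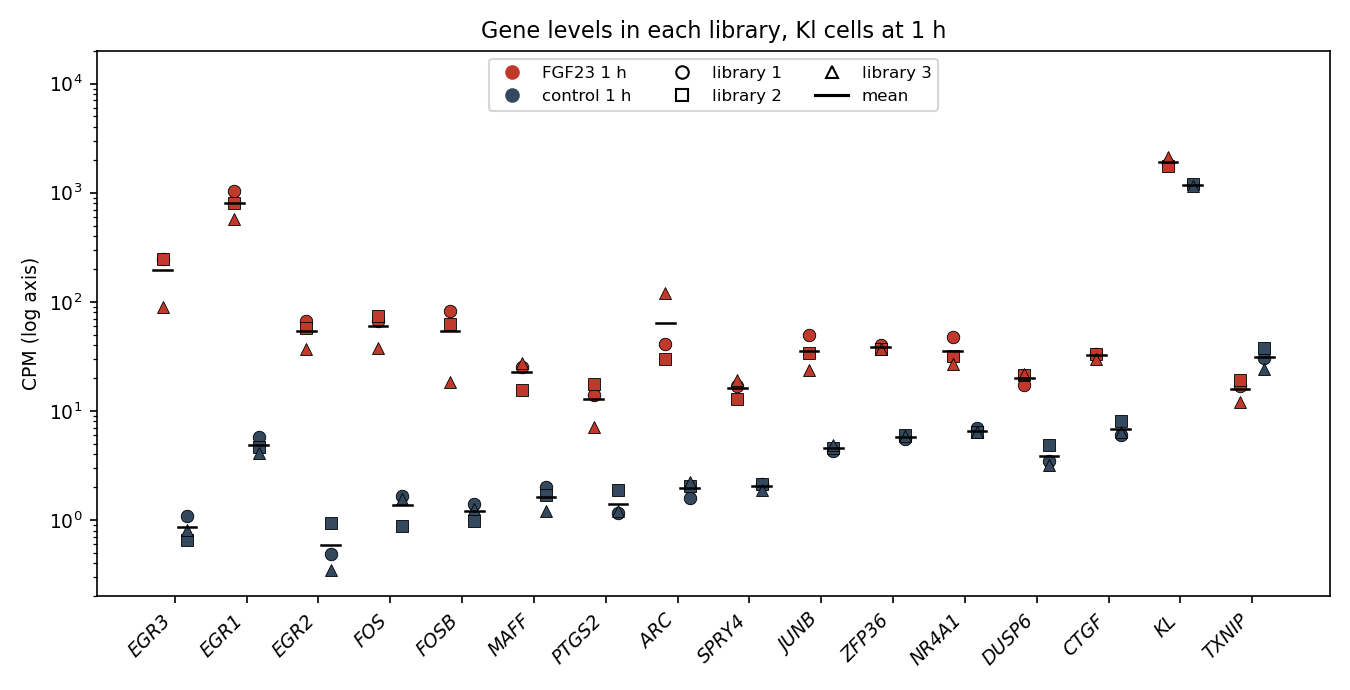
Level of 16 genes in each library of Kl cells at 1 h, in CPM on a log axis, with FGF23-treated libraries left and controls right for each gene and a bar at the group mean. EGR1 lay between 571 and 1038 CPM in treated libraries and between 4.15 and 5.80 CPM in controls, and TXNIP is the gene plotted whose treated libraries all lay below its controls.

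The EGR family, zinc finger transcription factors that bind GC-rich promoter sites, showed the highest fold changes. EGR1 (ENSG00000120738, chromosome 5, 138465490 to 138469315, GRCh38), the family's founding member, had 1038, 810.0 and 571 CPM in FGF23-treated Kl libraries, against 5.80, 4.67 and 4.15 CPM in Kl controls. All treated libraries lay far above the controls, and treated library 3 was the lowest of the treated. EGR1 rose by 7.37 ± 0.244 (SE) on the log2 scale and had the smallest p of all genes tested (adjusted p = 6.23e-09). Here and below, SE is the absolute log2 fold change divided by the square root of the test's F statistic. It is an approximation, least sure where control counts are few. EGR2, known for its role in myelinating cells, had 67.1, 58.1 and 37.2 CPM in FGF23-treated Kl libraries, against 0.489, 0.933 and 0.346 CPM in Kl controls (log2 fold change 6.49 ± 0.313 SE, adjusted p = 2.14e-07). EGR3 had 248, 248 and 89.3 CPM in FGF23-treated Kl libraries, against 1.10, 0.659 and 0.806 CPM in Kl controls (log2 fold change 7.83 ± 0.558 SE, adjusted p = 9.65e-04). EGR3 lost its call without treated library 1 (adjusted p = 0.123), with libraries 2 and 3 of the treated cells 2.78 times apart. EGR4, the fourth family member, had 17.8, 16.3 and 6.08 CPM in FGF23-treated Kl libraries, against 0, 0.0549 and 0.115 CPM in Kl controls (adjusted p = 5.99e-05), with 3 counts over the 3 control libraries against 924 over the treated ones. That is a ratio of 225 after scaling to library size, with an exact interval of 76.8 to 1094 that covers counting error only. In all 4 EGR genes library 3 was the lowest treated library.

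NAB1 and NAB2 encode corepressors that bind EGR factors and hold back their activity. NAB2 had 26.4, 19.1 and 89.3 CPM in FGF23-treated Kl libraries, against 8.25, 10.5 and 11.8 CPM in Kl controls. Its treated libraries lay above all controls, and library 3 stood well above the other treated libraries, opposite to the EGR genes. NAB2 was not called (log2 fold change 2.14 ± 0.689 SE, adjusted p = 0.538), and NAB1 stood at a log2 fold change of 0.19 (adjusted p = 0.851). Of the 6 genes of the EGR and NAB list 4 were called higher (3 without treated library 1), against 0.535% of all genes tested.

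AP-1 is a dimer of FOS and JUN proteins that binds the sequence TGANTCA and drives genes of growth and migration. FOS, the prototype immediate-early gene, had 67.2, 74.1 and 38.1 CPM in FGF23-treated Kl libraries, against 1.65, 0.878 and 1.56 CPM in Kl controls. The groups were far apart (log2 fold change 5.46 ± 0.296 SE, adjusted p = 6.76e-07), and library 3 was again the lowest treated library. JUNB, a partner of FOS, had 50.1, 33.7 and 23.5 CPM in FGF23-treated Kl libraries, against 4.34, 4.56 and 4.90 CPM in Kl controls (log2 fold change 2.95 ± 0.245 SE, adjusted p = 4.10e-05). FOSL1, a FOS relative that usually accumulates under sustained ERK activity, had 7.96, 6.13 and 11.5 CPM in FGF23-treated Kl libraries, against 2.26, 1.26 and 1.79 CPM in Kl controls (log2 fold change 2.27 ± 0.277 SE, adjusted p = 0.00115). FOSL1 differed from FOS and JUNB in that library 3 was its highest treated library. JUN, the founding partner of FOS in AP-1, had 435, 365 and 432 CPM in FGF23-treated Kl libraries, against 243, 219 and 278 CPM in Kl controls (log2 fold change 0.74 ± 0.118 SE, adjusted p = 0.0110). JUN lost its call without control library 1 or 2 (adjusted p = 0.0922 and 0.137). JUND rose by 1.17 and ATF3, a stress-responsive repressor of the same leucine zipper class, by 1.28 on the log2 scale. FOSL2 rose by 0.99, and this call was lost without control library 1 or 2 or treated library 1 or 3 (adjusted p between 0.0972 and 0.397).

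FOSB, which encodes a FOS protein best known from neurons, was not called although its fold change equalled that of FOS. It had 81.6, 62.1 and 18.2 CPM in FGF23-treated Kl libraries, against 1.41, 0.988 and 1.27 CPM in Kl controls (log2 fold change 5.46 ± 0.726 SE, adjusted p = 0.0591). The groups did not overlap, and libraries 1 and 2 of the treated cells held 4.47 and 3.40 times as much as library 3. In all, 7 of the 9 AP-1 genes tested were called higher (6 without treated library 1), against 0.535% of all genes tested. The median log2 fold change over the 9 was 1.28. JDP2, an AP-1 repressor, stood at -0.15.

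The NR4A genes encode orphan nuclear receptors that act without a ligand as soon as they are made. NR4A1 had 47.9, 31.6 and 26.7 CPM in FGF23-treated Kl libraries, against 6.90, 6.42 and 6.39 CPM in Kl controls (log2 fold change 2.42 ± 0.204 SE, adjusted p = 4.18e-05). NR4A2 had 44.1, 45.9 and 21.4 CPM in FGF23-treated Kl libraries, against 14.5, 12.9 and 12.96 CPM in Kl controls (log2 fold change 1.46 ± 0.235 SE, adjusted p = 0.0112). NR4A3 had 11.4, 11.2 and 6.40 CPM in FGF23-treated Kl libraries, against 2.57, 2.91 and 3.63 CPM in Kl controls (log2 fold change 1.66 ± 0.243 SE, adjusted p = 0.00587). All 3 family members rose, and in each library 3 was the lowest treated library. The call of NR4A2 was lost without control library 2 or 3 or treated library 1 (adjusted p between 0.0787 and 0.393).

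MAFF, a small MAF leucine zipper factor, rose by 3.80 ± 0.260 (SE) on the log2 scale. Its levels were 25.5, 15.5 and 27.7 CPM in FGF23-treated Kl libraries, against 2.02, 1.70 and 1.21 CPM in Kl controls, with library 2 lowest among the treated. MAFF overlaps PLA2G6 on the other strand, which stood at 0.06. Its relative MAFA, a large MAF factor, rose by 1.58 on the log2 scale, but lost its call without control library 1 or 2 (adjusted p up to 0.106). Krüppel-like factors are zinc finger proteins of growth control. KLF10, a TGF-beta-inducible member, had 72.9, 68.4 and 83.9 CPM in FGF23-treated Kl libraries, against 28.1, 30.7 and 28.7 CPM in Kl controls (log2 fold change 1.36 ± 0.118 SE, adjusted p = 4.87e-05). KLF2 and KLF4, factors of vessel lining and of pluripotent cells, changed by 1.19 and 0.95, while KLF5, KLF6, KLF9 and KLF11 stood at 0.60, 0.19, 0.40 and 0.21 with no call. KLF2 lost its call without control library 1 or 2 (adjusted p = 0.0656 and 0.0743).

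SRF, the factor that binds CArG boxes in early gene promoters, was itself higher. It had 232, 156 and 168 CPM in FGF23-treated Kl libraries, against 109, 103 and 106 CPM in Kl controls (log2 fold change 0.80 ± 0.140 SE, adjusted p = 0.0196). CSRNP1 is a nuclear protein gene induced by AXIN1, and CEBPB encodes a factor of inflammatory and metabolic genes. CSRNP1 rose by 1.48 and CEBPB by 0.93 on the log2 scale. The inhibitors of bHLH factors ID1 and ID4 rose by 0.85 and 0.63. The antisense gene AL022068.1, which overlaps ID4 on the other strand, rose by 1.08. SRF, ID4, ID1, CEBPB, CSRNP1 and AL022068.1 each lost the call when 1 of at least 3 libraries was left out, control library 1 among them (highest adjusted p = 0.167, 0.196, 0.138, 0.182, 0.383 and 0.195). Strand-specific counting is not stated and the kit named in the labels does not mark strand, so reads of ID4 and of AL022068.1 cannot be told apart. Over all 33 early transcription factors outside the EGR and AP-1 families, 12 were called higher (13 without treated library 1), 0 lower, and the median was 0.55. The share called higher over all genes tested was 0.535%. MYC stood at 0.66 (adjusted p = 0.158), IRF1 at 0.09 and SOX9 at 0.03.

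The promoters of 4 of these genes are shown because CArG boxes, the SRF binding motif, and the CRE half-site TGACG, bound by CREB and ATF factors, are the motifs classically described in immediate-early genes. The sequences are RefSeq's (GRCh38.p14), the 250 bases before the annotated start, read 5′ to 3′ on the gene's strand. Capitals mark CArG boxes in EGR1 (chr5:138465229-138465478, plus strand) and SRF (chr6:43171019-43171268, plus strand), whose first bases lie 105 and 83 bases before the start in EGR1 and 30 and 10 bases before it in SRF.
EGR1: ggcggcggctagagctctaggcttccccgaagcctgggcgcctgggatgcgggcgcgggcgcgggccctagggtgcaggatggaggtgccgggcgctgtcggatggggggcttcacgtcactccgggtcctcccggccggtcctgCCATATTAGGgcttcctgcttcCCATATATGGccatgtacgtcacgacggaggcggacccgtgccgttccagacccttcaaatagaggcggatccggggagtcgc
SRF: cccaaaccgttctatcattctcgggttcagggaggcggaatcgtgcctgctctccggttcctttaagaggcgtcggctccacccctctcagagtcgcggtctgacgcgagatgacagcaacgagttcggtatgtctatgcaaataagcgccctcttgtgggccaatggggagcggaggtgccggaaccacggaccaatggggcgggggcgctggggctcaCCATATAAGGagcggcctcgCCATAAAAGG
In JUNB (chr19:12791236-12791485, plus strand) and SPRY2 (chr13:80341127-80341376, minus strand) capitals mark the CRE half-site, which begins 137 bases before the start in JUNB and 190 in SPRY2. The EGR1 and SRF sequences above also hold this half-site, in EGR1 as its reverse complement CGTCA, left there in small letters.
JUNB: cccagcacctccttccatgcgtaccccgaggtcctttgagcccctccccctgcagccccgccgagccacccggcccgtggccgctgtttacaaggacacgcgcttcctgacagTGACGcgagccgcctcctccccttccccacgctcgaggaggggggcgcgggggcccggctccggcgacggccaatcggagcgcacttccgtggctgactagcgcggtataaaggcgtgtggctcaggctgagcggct
SPRY2: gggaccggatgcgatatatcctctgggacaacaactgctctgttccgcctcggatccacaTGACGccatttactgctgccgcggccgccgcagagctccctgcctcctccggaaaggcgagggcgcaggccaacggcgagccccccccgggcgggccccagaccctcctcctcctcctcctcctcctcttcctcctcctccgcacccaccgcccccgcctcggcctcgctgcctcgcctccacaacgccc
RefSeq promoters were matched by symbol or older symbol for 63 of the 87 genes called higher and for 11557 of the genes tested, and each motif was searched on both strands, where matches of different motifs may overlap. A CArG box was found in 2 of the 63 (3.17%), namely EGR1 and SRF, in 0.952% of the promoters of genes tested and in 1.16% of all 35116 promoters. The CRE half-site was found in 30 of the 63 (47.6%), in 29.5% of those tested and in 21.2% of all. GGGCG, the core that EGR factors bind, was in 90.5%, against 81.3% of those tested and 54.8% of all. The AP-1 motif TGANTCA was in 1.59%, against 3.80% and 6.57%, and the ETS core CCGGAA in 12.7%, against 24.1% and 14.5%. A match describes the letters in this window and is not a measured binding site.

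Among early genes that are not DNA-binding factors, 8 of the 29 tested in a list of survival and activity-regulated genes were called higher, against 0.535% of all genes tested. They were PTGS2, GPR3, TRIB1, MCL1, IER2, PIM1, PIM3 and PHLDA1. PTGS2 encodes cyclooxygenase 2, the inducible enzyme of prostaglandin synthesis. It had 14.1, 17.7 and 7.11 CPM in FGF23-treated Kl libraries, against 1.16, 1.87 and 1.21 CPM in Kl controls (log2 fold change 3.19 ± 0.336 SE, adjusted p = 3.19e-04), with library 3 lowest of the treated, and lost its call without treated library 1 (adjusted p = 0.0908). GPR3, a receptor that raises cyclic AMP without a ligand, had 2.61, 2.16 and 4.38 CPM in FGF23-treated Kl libraries, against 0.428, 0.604 and 0.115 CPM in Kl controls (log2 fold change 2.97 ± 0.448 SE, adjusted p = 0.00761), with library 3 highest of the treated. IER2, a short nuclear protein of the first wave, had 97.5, 81.4 and 57.8 CPM in FGF23-treated Kl libraries, against 28.3, 28.4 and 28.7 CPM in Kl controls (log2 fold change 1.47 ± 0.165 SE, adjusted p = 5.27e-04). Its controls were nearly equal, and the treated libraries spread over a range of 57.8 to 97.5 CPM. SERTAD1, which is in none of the lists and regulates E2F and cyclin D-CDK4, had 63.97, 42.8 and 80.4 CPM in FGF23-treated Kl libraries, against 18.7, 16.3 and 14.2 CPM in Kl controls (log2 fold change 1.93 ± 0.203 SE, adjusted p = 3.19e-04). TRIB1, a pseudokinase that directs C/EBP proteins to degradation, had 48.6, 49.6 and 61.9 CPM in FGF23-treated Kl libraries, against 18.02, 14.1 and 16.2 CPM in Kl controls (log2 fold change 1.73 ± 0.142 SE, adjusted p = 3.92e-05). In SERTAD1 and TRIB1 library 3 was the highest of the treated, and SERTAD1 lost its call without treated library 1 (adjusted p = 0.188). MCL1, which encodes an unstable BCL2 family protein that blocks cell death, had 402, 414 and 382 CPM in FGF23-treated Kl libraries, against 219, 215 and 221 CPM in Kl controls, a smaller change (log2 fold change 0.87 ± 0.0947 SE, adjusted p = 4.11e-04) with little spread in either group. PIM1, a survival kinase, changed by 0.83 and lost its call without any 1 of the 3 control libraries (adjusted p = 0.0548, 0.0944 and 0.0892). PIM3 and PHLDA1 changed by 0.82 and 0.80, and both lost the call without any 1 control library (adjusted p up to 0.116 and 0.178). Of the 29 genes of the list 28 had a log2 fold change above 0, with a median of 0.82.

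Messenger decay factors bind or shorten unstable transcripts, the early genes among them. ZFP36 (tristetraprolin), which directs AU-rich messengers to decay, had 40.4, 36.9 and 37.2 CPM in FGF23-treated Kl libraries, against 5.56, 5.98 and 5.93 CPM in Kl controls. The libraries of each group were close together, and the groups did not overlap (log2 fold change 2.71 ± 0.130 SE, adjusted p = 2.14e-07). BTG2, which stimulates deadenylation and slows proliferation, had 198, 212 and 203 CPM in FGF23-treated Kl libraries, against 86.999, 87.96 and 90.3 CPM in Kl controls (log2 fold change 1.21 ± 0.0973 SE, adjusted p = 3.51e-05). ZFP36L2, a relative of ZFP36, changed by 0.73 and lost its call without control library 2 or 3 (adjusted p = 0.0794 and 0.104). Called higher were 3 of the 12 decay factors (6 of 12 without treated library 1), against 0.535% of all genes tested. ZFP36L1 stood at 0.61 (adjusted p = 0.0592), and CNOT4 and RC3H1 at -0.02 and -0.03.

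Dual-specificity phosphatases (DUSPs) remove phosphate from MAP kinases. DUSP6, which acts on ERK in the cytoplasm and is a common readout of FGF signaling, had 17.4, 21.4 and 21.7 CPM in FGF23-treated Kl libraries, against 3.48, 4.83 and 3.23 CPM in Kl controls (log2 fold change 2.39 ± 0.180 SE, adjusted p = 1.80e-05). DUSP5, the nuclear ERK phosphatase, had 52.3, 48.4 and 33.7 CPM in FGF23-treated Kl libraries, against 10.6, 11.9 and 11.9 CPM in Kl controls (log2 fold change 1.96 ± 0.167 SE, adjusted p = 4.20e-05). DUSP6 and DUSP5 both rose, but treated library 3 was the highest of the treated for DUSP6 and the lowest for DUSP5. DUSP1, a nuclear phosphatase of p38, JNK and ERK, had 75.8, 70.6 and 62.4 CPM in FGF23-treated Kl libraries, against 27.7, 27.5 and 31.7 CPM in Kl controls (log2 fold change 1.26 ± 0.121 SE, adjusted p = 1.36e-04). DUSP4 rose by 1.13 ± 0.161 (SE) on the log2 scale. DUSP8, which acts mainly on JNK and p38, changed by 0.83 and lost its call without control library 1, 2 or 3 (adjusted p = 0.0656, 0.177 and 0.0943). In the list of 11 DUSPs, 5 were called higher, against 0.535% of all genes tested. All 11 had a log2 fold change above 0, with a median of 0.83. DUSP7 and DUSP9, which like DUSP6 prefer ERK, stood at 0.28 and 0.41 with no call.

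Sprouty and SPRED proteins dampen receptor signaling to RAS and ERK. SPRY4 had 16.8, 12.8 and 19.2 CPM in FGF23-treated Kl libraries, against 2.14, 2.14 and 1.90 CPM in Kl controls. The lowest treated library held 5.96 times the highest control (log2 fold change 2.97 ± 0.199 SE, adjusted p = 5.92e-06). SPRY2 had 48.4, 45.3 and 43.2 CPM in FGF23-treated Kl libraries, against 17.6, 17.8 and 17.2 CPM in Kl controls (log2 fold change 1.38 ± 0.115 SE, adjusted p = 4.14e-05), with close agreement within both groups. SPRY1 stood at 0.23, SPRED1 at 0.66, SPRED2 at 0.53 and SPRED3 at 0.53 (adjusted p = 0.744, 0.692, 0.547 and 0.453). Of 21 members of this list tested, including the membrane modulators IL17RD and FLRT1 to FLRT3, 2 were called higher (4 without treated library 1), with a median of 0.22. The share called higher over all genes tested was 0.535%.

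The ETS factors ETV4 and ETV5 are targets of FGF signaling in many embryonic tissues, and neither was called in the edgeR fit to the 6 libraries. ETV5 had 7.96, 7.28 and 24.3 CPM in FGF23-treated Kl libraries, against 6.66, 6.86 and 3.97 CPM in Kl controls. Treated library 3 alone stood apart from the rest, with libraries 1 and 2 close above the highest control (log2 fold change 1.19 ± 0.505 SE, adjusted p = 0.635). ETV4 had 4.17, 2.999 and 8.69 CPM in FGF23-treated Kl libraries, against 3.05, 3.79 and 3.11 CPM in Kl controls (log2 fold change 0.67 ± 0.333 SE, adjusted p = 0.667), and here the groups overlapped. Among the 12 ETS factors tested 0 were called in that fit, 1 by DESeq2 and 0 by limma voom, with a median of 0.07. In the edgeR fit to all 24 libraries 2 of them were called higher. At an unadjusted p under 0.05 edgeR had 1 of the 12, against 1277 of all 16250 genes tested. ERF, an ETS repressor that ERK moves out of the nucleus, stood at 0.55 (adjusted p = 0.217), and ELK1 at 0.20.

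Of 13 genes of the receptor complex and its adaptors tested 1 was called, the transfected KL, against 0.535% of all genes tested called higher. KL (ENSG00000133116, chromosome 13, 33016433 to 33066145) had 1825, 1748 and 2134 CPM in FGF23-treated Kl libraries, against 1186, 1209 and 1152 CPM in Kl controls (log2 fold change 0.69 ± 0.106 SE, adjusted p = 0.00867), a ratio of the means of about 1.61. All treated libraries lay above the controls. The counts of KL in WT libraries of the same time were at most 0.26 CPM. The call of KL was lost without any 1 control library (adjusted p = 0.0809, 0.0944 and 0.0953). FGFR1, the receptor through which FGF23 mainly acts in kidney, had 116, 84.7 and 103 CPM in FGF23-treated Kl libraries, against 85.3, 80.2 and 80.8 CPM in Kl controls (log2 fold change 0.30 ± 0.124 SE, adjusted p = 0.573). FGFR3 stood at 0.41 ± 0.134 (SE), FGFR4 at 0.28 and FGFR2 at 0.08, with adjusted p-values of 0.401, 0.630 and 0.867. The adaptors FRS2, GRB2, SOS1 and PTPN11 lay between -0.08 and 0.06. KLB, the Klotho of the FGF19 and FGF21 hormones, and FGF23 did not pass the filter. Of the 17 RAS, RAF, MEK, ERK and RSK genes 0 were called in edgeR, DESeq2 or limma voom. Their median was 0.06, with MAP2K2 at 0.37 and MAPK3 (ERK1) at 0.32. At an unadjusted p under 0.05 edgeR had 1 of the 17, against 1277 of all 16250 genes tested.

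CTGF (CCN2) and CYR61 (CCN1) encode secreted matrix proteins that respond to SRF and YAP. CTGF had 33.3, 33.5 and 30.1 CPM in FGF23-treated Kl libraries, against 6.05, 8.02 and 6.45 CPM in Kl controls (log2 fold change 2.24 ± 0.145 SE, adjusted p = 4.73e-06). CYR61 had 45.7, 52.1 and 36.7 CPM in FGF23-treated Kl libraries, against 15.3, 16.4 and 16.8 CPM in Kl controls (log2 fold change 1.47 ± 0.144 SE, adjusted p = 1.66e-04). Both were clear of the controls in every library. Of all genes tested 0.535% were called higher. Of 11 genes tested in their list these 2 were called, with F3 at 2.18, ANKRD1 at -0.45, AMOTL1 at -0.06, AMOTL2 at 0.43 and LATS2 at 0.45 not called. In the list of SRF and actin cytoskeleton genes, ZYX, a focal adhesion protein gene, was the 1 called of 23 at 0.81 (3 without treated library 1). ZYX lost its call without any 1 control library or without treated library 1 or 3 (adjusted p between 0.0972 and 0.318). The actin genes ACTB and ACTG1 stood at 0.38 and 0.44 (adjusted p = 0.296 and 0.142), and 22 of the 23 had a fold change above 0, with a median of 0.29.

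Of 18 secreted growth factors and proteases tested 2 were called, both higher, against 0.535% of all genes tested. ADAMTS1, a secreted protease of versican, had 1273, 1282 and 1495 CPM in FGF23-treated Kl libraries, against 687, 678 and 859.7 CPM in Kl controls (log2 fold change 0.86 ± 0.121 SE, adjusted p = 0.00404). The groups did not overlap, and it lost its call without control library 2 (adjusted p = 0.0639). BMP2, a bone morphogenetic ligand, changed by 0.81 and lost its call without control library 1 or 2 (adjusted p = 0.0894 and 0.0743). The EGF family ligand HBEGF stood at 0.55 (adjusted p = 0.193) and VEGFA at 0.23.

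Few genes fell in the fit to the 6 libraries. TXNIP, a thioredoxin inhibitor and glucose uptake suppressor driven by MondoA, had 16.8, 19.01 and 11.97 CPM in FGF23-treated Kl libraries, against 30.4, 38.05 and 24.2 CPM in Kl controls (log2 fold change -0.96 ± 0.192 SE, adjusted p = 0.0491). The groups did not overlap, but the call was lost without control library 1 or 2 or treated library 1 or 3 (adjusted p between 0.117 and 0.369). Its arrestin relative ARRDC4, also a MondoA target, stood at 0.48 and ARRDC3 at -0.75, neither called. ZNF192P1, a zinc finger pseudogene, had 1.68, 1.82 and 1.70 CPM in FGF23-treated Kl libraries, against 3.54, 3.62 and 4.20 CPM in Kl controls. It changed by -1.12 and lost its call without any 1 control library or without treated library 2 or 3 (adjusted p between 0.0731 and 0.223). TBC1D3G had 0.684, 0.404 and 0.434 CPM in FGF23-treated Kl libraries, against 3.30, 2.14 and 1.90 CPM in Kl controls (log2 fold change -2.31 ± 0.349 SE, adjusted p = 0.00761), and without control library 1 its adjusted p was 0.0540. TBC1D3G belongs to a family of near-identical copies and ZNF192P1 is a pseudogene, so the sharing of their reads among copies is uncertain.

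Lists of other pathways showed single calls or 0 calls in edgeR, beside 0.535% of all genes tested called higher. IRS2, an insulin receptor substrate, was called higher among 15 FOXO and insulin-repressed genes at 0.76, but not without any 1 control library (adjusted p = 0.0508, 0.150 and 0.155). The sterol sensor gene INSIG1 stood at 0.72 (adjusted p = 0.0591). NF-kB subunits and feedback genes (12 tested), ATF4 and unfolded protein response genes (19), heat shock genes (12), mitosis genes (18), S phase genes (18), and phosphate and vitamin D genes (11) gave 0 calls each in edgeR, with medians of 0.13, 0.20, 0.15, -0.05, 0.02 and 0.11. Among these were the NF-kB inhibitor NFKBIA at -0.10, the phosphate transporter SLC20A1 at 0.33 and the vitamin D hydroxylase CYP27B1 at 0.49. The 13 mitochondrially encoded genes also gave 0 calls, with a median of 0.12, and MT-ATP8 had 396, 16.6 and 21.1 CPM in FGF23-treated Kl libraries, against 25.2, 18.2 and 21.7 CPM in Kl controls (adjusted p = 0.755), treated library 1 alone being high and the groups overlapping. At an unadjusted p under 0.05 edgeR had 1277 of all 16250 genes tested. In these lists it had 1 of 12 NF-kB genes and 8 of 19 ATF4 and unfolded protein response genes. It had 2 of 12 heat shock genes, 2 of 11 phosphate and vitamin D genes and 0 of the mitosis, S phase and mitochondrially encoded genes. DESeq2 and limma voom called 0 in each of these lists.

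Some other genes with a high fold change stood in none of the lists. C11orf96 had 26.8, 19.5 and 43.8 CPM in FGF23-treated Kl libraries, against 5.74, 5.49 and 6.11 CPM in Kl controls (log2 fold change 2.38 ± 0.254 SE, adjusted p = 3.52e-04), and lost its call without treated library 1 (adjusted p = 0.179). GPR50, a receptor related to those of melatonin, had 10.4, 8.80 and 16.9 CPM in FGF23-treated Kl libraries, against 3.30, 3.35 and 3.74 CPM in Kl controls (log2 fold change 1.80 ± 0.241 SE, adjusted p = 0.00279) and was chosen here after its values were seen. In both the groups did not overlap and library 3 was the highest of the treated. Chosen likewise after their values were seen, SAT1, the first enzyme of polyamine breakdown, had 288, 318 and 280.0 CPM in FGF23-treated Kl libraries, against 150.4, 157 and 162 CPM in Kl controls (log2 fold change 0.92 ± 0.100 SE, adjusted p = 4.11e-04), and EPHA2, an ephrin receptor, rose by 1.17 on the log2 scale (adjusted p = 0.163 without treated library 1). SIK1B, a salt-inducible kinase gene, rose by 1.25, and its near-identical copy SIK1 stood at 0.79 (adjusted p = 0.418), so reads may be split between them. SIK1B lost its call without any 1 control library or treated library 3 (adjusted p up to 0.195).

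The treated libraries did not rank alike from gene to gene. Of the 87 genes called higher, library 1 was the highest treated library in 43, library 2 in 11 and library 3 in 33, and library 2 was the lowest in 47. Over all 16250 genes tested, libraries 1, 2 and 3 were highest in 6742, 4680 and 4828, and lowest in 6486, 4916 and 4848. Set against the mean of libraries 1 and 2 on the log2 scale, library 3 was lower by over 0.5 in 12 of the 87, higher by over 0.5 in 11 and within 0.5 in 64. The same split was not made over all genes tested, so these numbers have no background beside them. EGR3, EGR4, PTGS2, NR4A2, FOS, NR4A3 and JUNB stood on the low side. CSRNP1, C11orf96, GPR3, GPR50 and FOSL1 stood on the high side, and ZFP36, CTGF, BTG2, MCL1 and DUSP6 near 0. The share of mitochondrially encoded counts was also highest in library 3, at 8.27%, and its part in this pattern was not tested.

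**Figure D2:**
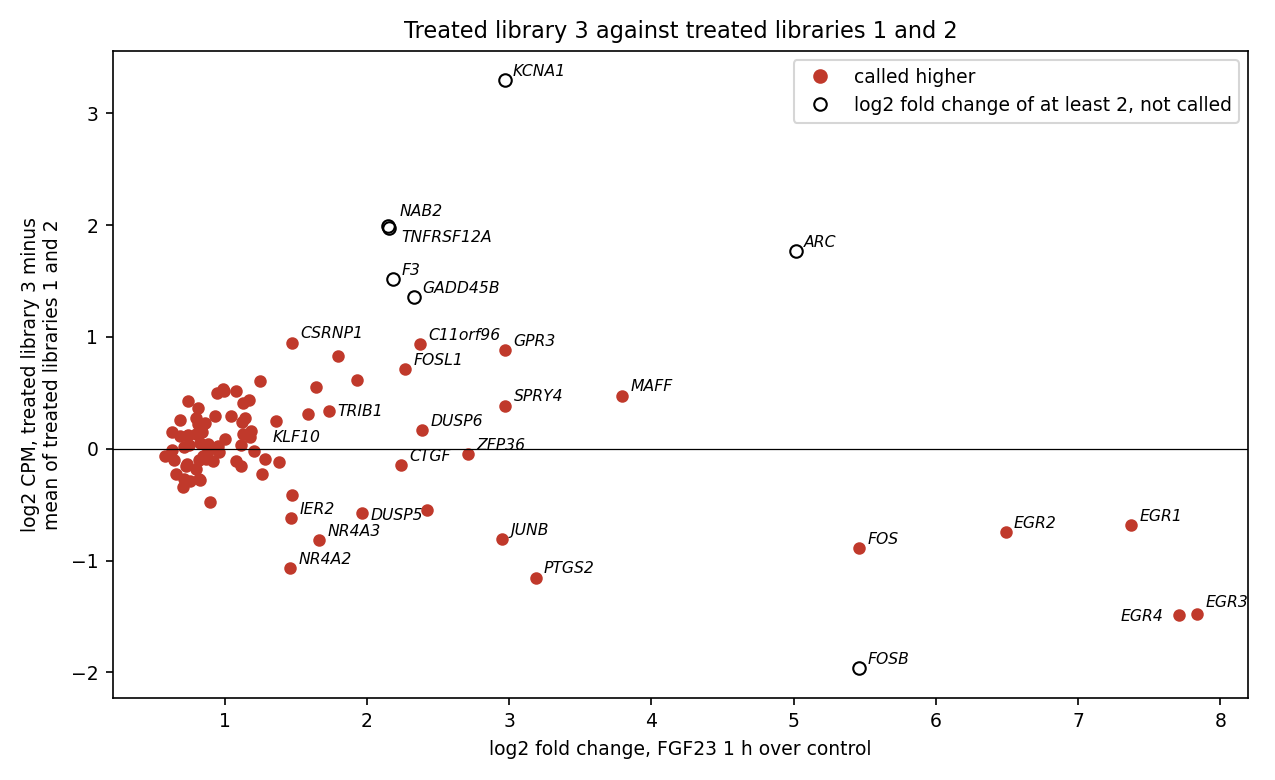
Log2 CPM in treated library 3 minus the mean of treated libraries 1 and 2 (vertical) against the log2 fold change of FGF23-treated over control Kl cells (horizontal), with genes called higher filled and genes of at least 2 log2 that were not called open. EGR3 and EGR4 lie lowest among the filled points at -1.47 and -1.49, and 6 of the 7 open points lie above 0.

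Some large changes did not pass the test in the fit to the 6 libraries. With a log2 fold change of at least 2, a mean of at least 1 CPM and no overlap between the groups, 7 genes were not called, and all of them were chosen here after their values were seen. Library 3 was the highest treated library in 6 of these and the lowest in 1, FOSB. In the fit to all 24 libraries all 7 were past the threshold, with adjusted p between 8.26e-07 and 0.0214. ARC, a synaptic gene induced by neuronal activity, had 40.9, 30.1 and 119 CPM in FGF23-treated Kl libraries, against 1.59, 2.03 and 2.25 CPM in Kl controls (log2 fold change 5.02 ± 0.732 SE, adjusted p = 0.105). GADD45B, a stress and demethylation factor, had 48.1, 27.9 and 93.8 CPM in FGF23-treated Kl libraries, against 10.4, 9.77 and 13.5 CPM in Kl controls (log2 fold change 2.33 ± 0.442 SE, adjusted p = 0.133). F3, which encodes tissue factor, the starter of blood clotting, had 9.27, 8.39 and 25.2 CPM in FGF23-treated Kl libraries, against 3.12, 3.13 and 3.23 CPM in Kl controls (log2 fold change 2.18 ± 0.417 SE, adjusted p = 0.0736). Each of these had all treated libraries above all controls, with library 3 at least 1.95 times the next highest. TNFRSF12A, the receptor of the cytokine TWEAK, had 13.6, 9.47 and 44.7 CPM in FGF23-treated Kl libraries, against 5.13, 3.18 and 6.97 CPM in Kl controls, and KCNA1, a potassium channel gene, 1.62, 1.28 and 14.1 CPM in FGF23-treated Kl libraries, against 0.733, 0.549 and 0.922 CPM in Kl controls. NAB2 was the seventh of these genes, and ETV5, with a smaller fold change, likewise had its highest level in library 3.

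The genes called higher in the fit to the 6 libraries were short, GC-rich and often transcription factors. Their median genomic span was 6.10 kb, against 27.5 kb over all genes tested, and their median GC content 56.1% against 48.6%. Treated library 1 itself rose with GC content (Spearman's rho 0.669), and its part in this GC content was not tested. The authors' annotation gave a transcription factor family to 32 of the 87 (36.8%), against 7.75% of all genes tested. Of 44 bZIP factors tested 10 rose (22.7%), and of 3 NR4A receptors all 3 rose, against 0.535% of all genes tested. Of 546 C2H2 zinc finger genes 7 rose (1.28%), namely the EGR genes, KLF2, KLF4 and KLF10. Homeobox genes, factors of embryonic patterning, numbered 5 of 136 (3.68%), with DLX2 at 0.71, GBX2 at 1.04, HOXB2 at 0.83, IRX5 at 0.68 and NKX2-5 at 0.82. All 5 lost their call without control library 2 or 3 (highest adjusted p over the libraries left out = 0.257, 0.192, 0.0516, 0.220 and 0.156). Because treated library 1 deviated with GC content, the GC trend was removed from each library as an alternative. After this 133 genes were called in edgeR and 80 of the 90 kept their call. Those that lost it were SERTAD1, EPHA2, PRR7, ZYX, C11orf96, TXNIP, NR4A2, FOSL2, MEX3D and CSRNP1 (adjusted p between 0.0554 and 0.385).

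Levels per length (FPKM, fragments scaled to gene length and library depth, deposited by the authors) put KL first among the called genes, at 382 ± 40.2 in treated and 237 ± 5.57 in control libraries (SD, n = 3 each). EGR1 came next in treated cells at 261 ± 76.0 FPKM, against 1.57 ± 0.273 FPKM in controls. EGR1 was thus second only to KL among the called genes in treated cells and a rare transcript in controls. ID4 stood at 199 ± 12.3 FPKM in treated and 128 ± 10.4 FPKM in control libraries. ADAMTS1 stood at 194 ± 17.6 FPKM in treated and 106 ± 14.7 FPKM in control libraries. In controls 4 of the 87 genes averaged under 1 CPM, 30 under 10 CPM and 8 at least 100 CPM.

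The difference of the FGF23 effect between Kl and WT cells was tested as an interaction over the 12 libraries of 1 h. In 59 of 17164 genes tested (0.344%) the effect was higher in Kl cells and in 1, TBC1D3G, lower (0.00583%, log2 difference -3.52). The number called was 32 to 38 without WT control library 1 or 2, without any 1 treated WT library or without Kl control library 2, and it was 97 and 119 without treated Kl library 1 and 2. Of the 87 genes called higher in Kl cells 54 (62.1%) were also called higher in the difference, and these were 91.5% of the 59. Both tests use the same Kl libraries, so this overlap is partly built in and is no independent support. In WT cells 0 genes were called by edgeR, DESeq2 or limma voom, with 237, 232 and 722 genes at an unadjusted p under 0.05. EGR1 had 8.55, 8.46 and 7.70 CPM in treated WT libraries, against 7.78, 7.55 and 5.57 CPM in WT controls. The groups of WT cells differed little there, and the log2 effect was 7.38 ± 0.221 (SE) in Kl and 0.22 ± 0.210 (SE) in WT cells. Of the 15 genes followed in this test, EGR1, FOS, ZFP36, SPRY4, DUSP6, IER2 and JUN were called in the difference. FOS differed by 5.70, ZFP36 by 2.66, SPRY4 by 2.51 and DUSP6 by 2.32 on the log2 scale (adjusted p = 1.20e-06, 1.96e-08, 7.67e-05 and 8.96e-05). TXNIP differed by -1.02 ± 0.231 (SE, adjusted p = 0.0850), and FGFR1 to FGFR4, ETV4 and ETV5 were not called either. Under the alternative setting most favourable to each, the adjusted p of the difference was 7.1e-07 for TXNIP, 8.3e-04 for ETV5 and 0.0230 for ETV4. For FGFR1 to FGFR4 it stayed over 0.05 under every alternative. KL could not be compared in this way, since it was at most 0.26 CPM in every WT library.

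**Figure D3:**
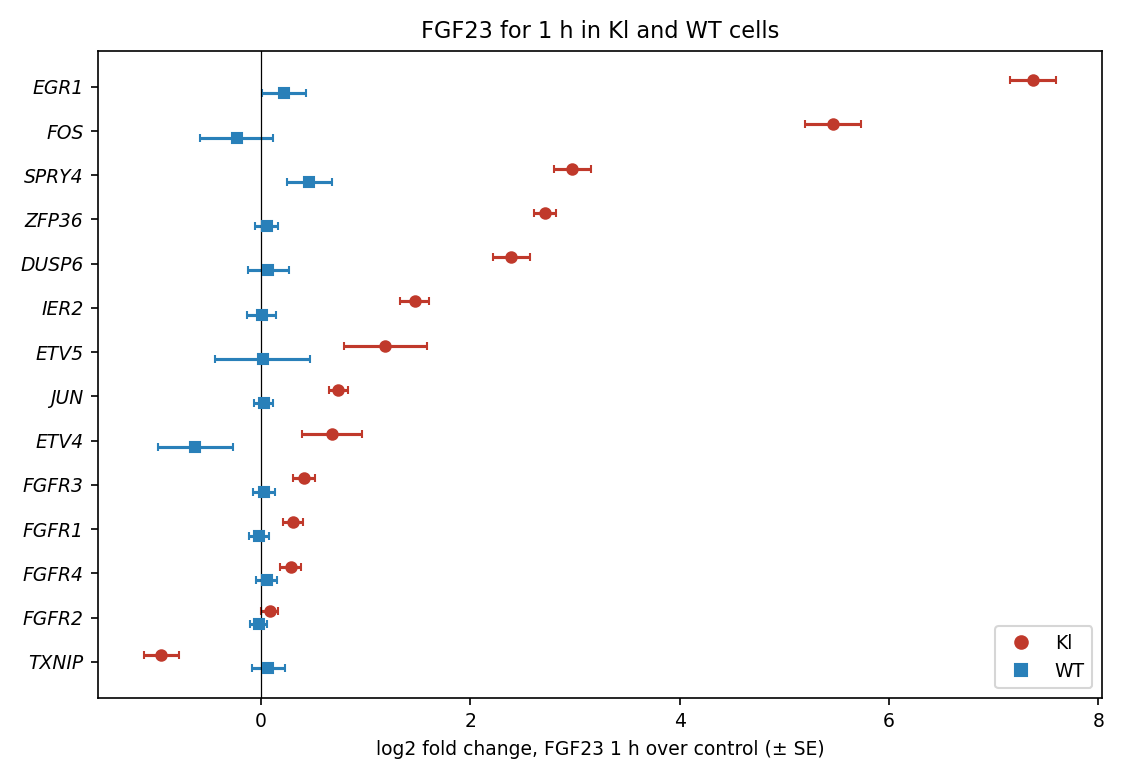
Log2 fold change of FGF23 over control at 1 h, with its SE, in Kl cells (circles, upper of each pair) and WT cells (squares, lower), from the fit to 12 libraries, for 14 genes. EGR1 stood at 7.38 in Kl and 0.22 in WT cells, and the symbols of FGFR2 lie near 0 in both lines. The SE is an approximation derived from the F statistic of the test.

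The authors' deposited table of this comparison held 183 genes at an adjusted p under 0.05, of which 178 were higher and 5 lower in treated cells. The 90 genes called here were all among the 183 in the authors' deposited table, which is 100% of the 90 and 49.2% of the 183. DESeq2 applied here to the deposited counts called the same 183 genes.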

How the data were processed

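The cells were HEK293 and RNA was isolated with a Nucleospin kit and made into libraries with an NEBNext Ultra RNA kit, per the labels' protocols. The authors deposited 1 table per comparison. Per the file headers its columns are unscaled gene counts, a signal made by dividing those counts by size factors, FPKM, gene length, and the authors' own log2 fold change with a raw and an adjusted p-value. The aligner, counting program, strand setting and test are not given in the sources used here. The submitters' processing notes name the mouse build mm10, but 28928 of 28934 gene IDs of the table matched GENCODE release 29 (human GRCh38) in start and end.

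The deposited counts of the 6 libraries were tested in edgeR 4.0.16 (filterByExpr, TMM scaling, robust quasi-likelihood fit to 2 group means, Benjamini-Hochberg adjustment over 16250 genes). CPM values are counts scaled with TMM factors. Each SE was derived as the absolute log2 fold change over the square root of the quasi-likelihood F. It was not taken from the fit itself. The difference between lines used the 12 libraries of 1 h, whose scaling gives slightly different CPM. Alternatives were RLE factors, library size only, no filter, a CPM of at least 1 in 3 libraries, DESeq2 1.42.0, limma 3.58.1 voom with a separate spread per group, each library left out, the replicate number as a block, removal of length or GC trends (lowess, span 0.3), and fits to all 24 or the 12 libraries. R 4.3.3, Python 3.11.15, pandas 2.3.3 and matplotlib 3.10.9 were used. The edgeR, DESeq2 and limma voom fits to the 6 libraries and the edgeR fit of the difference between lines were also run on simulated counts. The other alternatives were not. Counting intervals are 95% and cover counting error only.

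Named were the 15 highest and 10 lowest called fold changes (mean CPM of at least 1, groups not overlapping), up to 6 called members of each list with the smallest p (the 2 smallest where fewer than 2 were called), and 15 fixed genes. The members, lists and tests were chosen with earlier results of these data known. Other list members are named with their values to describe their list, chosen after their values were seen. Some genes that the naming rule or the lists would give are not reported here.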

Additional observations from a re-analysis of the deposited data

Results flagged for a closer look

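The effect of FGF23 for 1 h differed between Kl and WT cells in 7 of the 15 genes followed, by the interaction term of edgeR's quasi-likelihood fit to 12 libraries with Benjamini-Hochberg adjustment over 17164 genes. The log2 effect in Kl minus that in WT cells was 7.16 for EGR1, 5.70 for FOS, 2.66 for ZFP36, 2.51 for SPRY4, 2.32 for DUSP6, 1.47 for IER2 and 0.71 for JUN. In EGR1, FOS, ZFP36, SPRY4, DUSP6 and IER2 the difference stayed past an adjusted p of 0.05 under every alternative tried. That of JUN had an adjusted p of 0.0197, and reached 0.104 in the alternative least favourable to it. In all 7 genes the 3 treated Kl libraries lay above the 3 Kl controls. In WT cells the effects of these genes lay between -0.23 for FOS and 0.46 for SPRY4, and 0 of them were called by edgeR, DESeq2 or limma voom.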

How the results depend on the processing

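For FGF23 in Kl cells at 1 h 90 genes were called. The count lay between 88 and 133 with RLE factors, library size only, the stricter filter, the length or GC trend removed, or limma voom. It moved to 236 with no filter, 183 with DESeq2, 859 in a fit to all 24 libraries and 237 in a fit to the 12 of 1 h, and the cause was not tested. Leaving out 1 library gave 40 to 163. The 90 genes were all called in the same direction with DESeq2, in the fits to 24 and to 12 libraries and with the replicate block. For the difference between Kl and WT cells 60 genes were called, and 46 to 66 with RLE factors, library size only, the stricter filter or limma voom. That count moved to 207 with no filter and 91 with DESeq2, and leaving out 1 library gave 32 to 119. No result changed its direction.

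The replicate number as a block gave 176 calls in Kl cells and 92 for the difference. Deviations of same-numbered treated and control libraries correlated by 0.088, 0.168 and 0.105, against -0.171 to 0.0405 for other pairs. Each treated library correlated best with its own number, a hint from the data and not from the design. The labels do not say that equal numbers belong together, so the main fit used no block.

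Of 78 named genes tested 44 were called, and 27 of the 44 kept their call and direction under every alternative that gave a value. The other 17 lost it without at least 1 library. With 3 libraries a group and 15.8 to 29.4 M counts each, changes of genes near the filter, such as EGR4 in controls, rest on few counts.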

Other observations

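Genes that rose outside the lists, all chosen here after their values were seen, included several of signaling. BCL10, an adaptor of NF-kB activation, had 33.97, 41.2 and 45.3 CPM in FGF23-treated Kl libraries, against 19.7, 19.7 and 15.2 CPM in Kl controls (log2 fold change 1.14 ± 0.148 SE, adjusted p = 0.00215, edgeR). MAP3K14, the kinase of the alternative NF-kB pathway, had 22.4, 18.03 and 29.03 CPM in FGF23-treated Kl libraries, against 10.9, 11.5 and 12.6 CPM in Kl controls, a log2 change of 0.99. Both rose while the 12 NF-kB subunits and feedback genes gave 0 calls in edgeR. The small GTPase gene RHOB rose by 0.65, the prostaglandin E2 receptor gene PTGER4 by 0.58 and the metalloprotease inhibitor gene TIMP3 by 0.94 on the log2 scale. SOWAHC rose by 1.12. FOXD1, a forkhead factor of kidney stroma, had 73.3, 58.4 and 60.5 CPM in FGF23-treated Kl libraries, against 34.3, 28.9 and 27.8 CPM in Kl controls (log2 fold change 1.08 ± 0.131 SE, adjusted p = 0.00115, edgeR), and OLIG2, a factor of the oligodendrocyte lineage, had 6.10, 6.40 and 9.16 CPM in FGF23-treated Kl libraries, against 2.20, 1.59 and 3.17 CPM in Kl controls, a log2 change of 1.64. In each of these genes every treated library lay above every control. BCL10, FOXD1 and SOWAHC kept their call under every alternative, whereas MAP3K14, RHOB, PTGER4 and TIMP3 lost it without any 1 control library, and OLIG2 without control library 1 or 2 (highest adjusted p = 0.139, 0.259, 0.346, 0.0743 and 0.0675).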
